A study of Mus musculus with 208 samples.

Results

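The 10 receptors described here are those through which appetite and metabolic hormones reach neurons, followed in the brain of adult mice exposed to morphine around birth: the receptors for leptin (Lepr), insulin (Insr), insulin-like growth factor 1 (Igf1r), melanocortins (Mc3r, Mc4r), ghrelin (Ghsr), glucagon-like peptide 1 (Glp1r) and neuropeptide Y (Npy1r, Npy2r, Npy5r). They were taken by gene symbol, and all 10 are listed among the 46403 genes of each of the 4 regions' tables. The measurement was RNA sequencing of nuclear RNA from sorted NeuN+ nuclei, that is, nuclei carrying a protein of mature neurons, in 71 animals, giving 51 libraries from hypothalamus, 55 from hippocampus, 48 from prefrontal cortex (PFC) and 54 from striatum. Each library came from 1 animal and 1 region, and the tissue was punched out 2 h after the adult injection.

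All animals were wild type C57BL/6NTac mice of both sexes (107 libraries from females, 101 from males). Dams carried an osmotic minipump filled with saline or with morphine, delivered at 10 mg/kg each day. All pups, of both exposures, were moved to drug-naive foster dams after birth and then injected under the skin 2 times a day from postnatal day 1 to the morning of day 14, with morphine (10 mg/kg) or saline, and morphine pups then went through spontaneous withdrawal. As adults they received lipopolysaccharide (LPS, a bacterial wall component that provokes an acute immune response) or saline. SAL-SAL and MOR-SAL are the saline- and morphine-exposed animals given saline as adults, and SAL-LPS and MOR-LPS those given LPS. Among saline-challenged animals there were 11 SAL-SAL and 14 MOR-SAL libraries from hypothalamus, 13 and 12 from hippocampus, 10 and 12 from PFC, and 13 and 8 from striatum. After LPS there were 12 SAL-LPS and 14 MOR-LPS libraries from hypothalamus, 14 and 16 from hippocampus, 10 and 16 from PFC, and 15 and 18 from striatum. Each animal carries a number such as 10-3. The labels do not say what the part before the hyphen stands for, and the 18 sets of animals that share it, 17 of them of 1 sex and each of 1 exposure, are called number groups here. Exposure was given by dam, and no source used here ties libraries to litters, so exposure and litter cannot be told apart.

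Appetite is governed by hypothalamic neurons that read the body's energy stores. Leptin from fat and insulin from the pancreas act on Lepr and Insr of these neurons, which release melanocortin peptides, or agouti-related peptide and neuropeptide Y, onto neurons that carry Mc3r, Mc4r and the Y receptors. Ghrelin from the stomach, through Ghsr, promotes feeding, and glucagon-like peptide 1, through Glp1r, curbs it. In hippocampus and cortex the Y receptors are better known for restraining excitatory transmission, and Igf1r for neuronal growth and survival. Lepr, Insr and Igf1r signal through kinases, their own or an associated one, whereas the other 7 are G protein-coupled receptors.

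In mm10, Lepr lies on chromosome 4 (101717404 to 101815352, plus strand), Insr on chromosome 8 (3122061 to 3279617, minus strand) and Igf1r on chromosome 7 (67952827 to 68233668, plus strand). Mc3r is on chromosome 2 (172248492 to 172251114, plus strand), Ghsr on chromosome 3 (27371351 to 27378010, plus strand), Glp1r on chromosome 17 (30901817 to 30940791, plus strand) and Npy2r on chromosome 3 (82538383 to 82548084, minus strand). Npy5r (chromosome 8, 66679965 to 66688128, minus strand) and Npy1r (chromosome 8, 66697192 to 66706792, plus strand) are neighbours transcribed away from each other from starts 9064 bases apart. No exon of any of the 10 receptors overlaps an exon of another annotated gene, so reads of an overlapping gene do not enter their counts by annotation.

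The depth differed between libraries. Total counts ran from 7673 to 35077048 in hypothalamus (median 5543589), 227025 to 24071488 in hippocampus (median 9184251), 3056648 to 21988203 in PFC and 5954700 to 92945090 in striatum. A count of 0 allows up to 3 counts of the total, which at the median depth was 0.542 CPM (a gene's count scaled to the library's total) in hypothalamus, 0.327 in hippocampus, 0.311 in PFC and 0.277 in striatum, counting error only. In the hypothalamic library of 7673 counts it was 391 CPM, so a value of 0 there says little of any receptor. Libraries with less than 0.5 of their region's median depth numbered 3, 2, 3 and 0 in that order, and libraries whose Y-linked counts went against the labelled sex 3, 7, 2 and 0. The defining hypothalamic markers summed to a median of 78.1 CPM (0 to 365) over 51 hypothalamic libraries, with Oxt and Six6 at a median of 0. Of the 12485 genes whose hypothalamic median reached 5 CPM, 1480 (11.9%) were at 0 in every library of the other 3 tables, none of them a receptor, and Rbfox3, which encodes NeuN, had a median of 137 CPM in hypothalamus against 1315, 2190 and 1173 in hippocampus, PFC and striatum. The hypothalamic table therefore differs from the other 3 in more than single genes, and region and table cannot be told apart. The other regions' libraries carried markers of more than 1 region too. The 6 striatal markers summed to a median of 1143 CPM in PFC and 1136 in striatum. The 4 cortical markers summed to 258 in PFC and 249 in hippocampus. The 9 thalamic markers summed to 4264 in striatum (Rora alone 3110), 2060 in PFC, 1611 in hippocampus and 360 in hypothalamus. Their part in the receptor levels by region was not tested.

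The 10 receptors covered a wide range of levels. Per kilobase of exon, which allows genes to be compared, Igf1r was the most abundant in hippocampus, PFC and striatum (mean 16.2, 17.3 and 18.8 CPM per kb) and Insr in hypothalamus (10.3 CPM per kb), while Ghsr was the least abundant in every region (0.335 CPM per kb in hypothalamus, 0.0663 in hippocampus and 0.0261 in striatum). Insr and Igf1r together were the bulk of the receptor signal outside the hypothalamus, where Igf1r alone made up 35.8% of the summed mean per kb in hippocampus and 49.8% in striatum, against 7.63% in hypothalamus. In the bulk of sorted nuclei a low level can mean few cells with the receptor or little RNA in each, and these cannot be told apart.

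**Figure D1:**
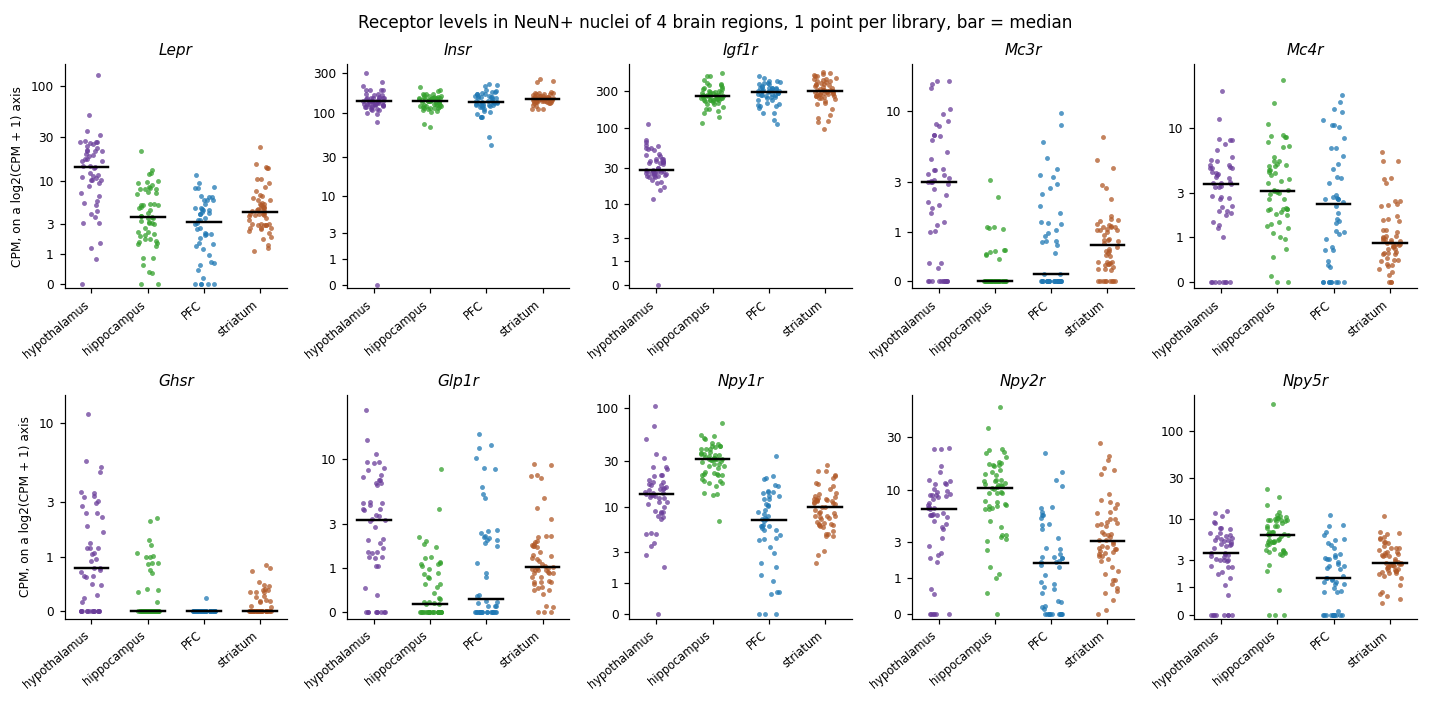
Level of each receptor in every library by region, in CPM on a log2(CPM + 1) axis, with 1 point per library and a bar at the median (51 hypothalamic, 55 hippocampal, 48 PFC and 54 striatal libraries). Igf1r sits far lower in hypothalamus (median 28.9 CPM) than elsewhere (medians of 263 to 307 CPM), Lepr and Mc3r sit highest in hypothalamus and the 3 Y receptors highest in hippocampus.

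Leptin receptor was most abundant in the hypothalamus. Lepr ranged from 0 to 130 CPM over 51 hypothalamic libraries (median 14.2, mean 17.2 ± 19.0 SD), where the highest value was 1 read in the library of only 7673 counts and the next was 50.6 CPM. In hippocampus it ranged from 0 to 21.2 CPM (median 3.81, mean 4.89 ± 4.05), in PFC from 0 to 11.8 (median 3.27, mean 3.61 ± 2.86) and in striatum from 1.18 to 23.4 (median 4.37, mean 5.54 ± 4.18). The ranges overlapped, but in a joint edgeR quasi-likelihood fit over the libraries of all 4 regions the hypothalamic level exceeded that of hippocampus by 1.37 on the log2 scale (SE 0.24, adjusted p 1.85e-07), that of PFC by 1.70 (SE 0.26, adjusted p 1.65e-09) and that of striatum by 1.00 (SE 0.25, adjusted p 0.000202).

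Insulin receptor was even across the regions. Its median was 138 CPM in hypothalamus (0 to 297), 141 in hippocampus (69.4 to 206), 136 in PFC (41.5 to 222) and 147 in striatum (113 to 254). The 4 ranges overlapped almost entirely, and the largest fitted log2 difference was -0.49, hypothalamus against striatum. The joint edgeR fit called Insr in 5 of the 6 region pairs, but with library size as the only scaling no pair that includes the hypothalamus kept its direction (0.14, 0.13 and 0.02 instead of -0.21, -0.16 and -0.49, against PFC, hippocampus and striatum), so no order of the regions is read from it.

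Igf1r was far lower in the hypothalamus than in the other 3 regions. Its hypothalamic values (0 to 116 CPM, median 28.9, n = 51) lay below the lowest hippocampal value (118 CPM, range 118 to 521, median 263), and they overlapped those of PFC (115 to 469, median 296) and striatum (99.8 to 527, median 307) only in the highest hypothalamic library, at 116 CPM. The library of only 7673 counts cannot place the level, as 3 counts are 391 CPM there. The joint edgeR fit gave log2 differences of hypothalamus against hippocampus, PFC and striatum of -3.14 (SE 0.13), -3.32 (SE 0.13) and -3.56 (SE 0.13), with adjusted p of 1.22e-60, 1.28e-62 and 4.16e-67. The other 3 regions lay close together, and the striatal excess over hippocampus (log2 difference -0.41, hippocampus minus striatum, adjusted p 0.00156) was not called when libraries were scaled by size alone (-0.20, adjusted p 0.0745).

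The melanocortin receptors were low everywhere. Mc3r, which tunes energy partitioning and feeding rhythms, was detected in 40 of 51 hypothalamic libraries (0 to 15.6 CPM, median 3.01), 13 of 55 hippocampal (0 to 3.13, median 0), 25 of 48 PFC (0 to 9.60, median 0.104) and 45 of 54 striatal libraries (0 to 6.63, median 0.661). Its hypothalamic level was higher than in hippocampus by 4.53 (SE 0.54), than in PFC by 1.90 (SE 0.52) and than in striatum by 1.87 (SE 0.49) on the log2 scale (joint edgeR fit, adjusted p 6.91e-14, 0.00073 and 0.000425). Mc4r, the receptor whose activation suppresses feeding, had medians of 3.63 CPM in hypothalamus (0 to 18.6), 3.13 in hippocampus (0 to 22.4), 2.38 in PFC (0 to 17.5) and 0.839 in striatum (0 to 6.58). Only the striatum stood apart, lower by 1.15 to 1.62 on the log2 scale than each of the other 3 regions (adjusted p 7.26e-06 to 0.00097, edgeR). In SAL-SAL libraries alone that contrast was not called in any of the 3 pairs, and its direction turned against the hypothalamus (-0.24, adjusted p 0.845).

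The receptor for ghrelin was near the limit of detection in every region, also in hypothalamus, where 3 counts at the median depth are 0.542 CPM. That for glucagon-like peptide 1 was low in every region. Ghsr was detected in 36 of 51 hypothalamic libraries (0 to 11.4 CPM, median 0.720), in 17 of 55 hippocampal, in 20 of 54 striatal and in 1 of 48 PFC libraries, where its total was 2 counts, so that it was left out of the joint fit and of the PFC tests. Glp1r was detected in 42 of 51 hypothalamic (0 to 22.6 CPM, median 3.22), 29 of 55 hippocampal (0 to 8.43, median 0.147), 30 of 48 PFC (0 to 15.4, median 0.241) and 51 of 54 striatal libraries (0 to 9.24, median 1.03). Glp1r was lowest in hippocampus, with log2 differences of 2.50 for hypothalamus against hippocampus, -1.86 for hippocampus against PFC and -1.45 for hippocampus against striatum (adjusted p 4.31e-07, 0.000251 and 0.00438, joint edgeR fit). The hippocampus to PFC difference was -0.87 (adjusted p 0.542) in the fit with the animal as a block over animals with both regions.

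All 3 Y receptors had their highest median over all conditions in the hippocampus, although in SAL-LPS animals the Npy2r median was 4.00 CPM in hippocampus and 5.25 in hypothalamus. Npy1r, the main postsynaptic Y receptor, had a hippocampal median of 31.1 CPM (7.14 to 70.7) against 13.7 in hypothalamus (0 to 105), 7.16 in PFC (0 to 33.1) and 10.0 in striatum (2.14 to 27.1). Npy2r, the presynaptic autoreceptor, had medians of 10.4 CPM in hippocampus (0 to 54.3), 6.61 in hypothalamus (0 to 23.8), 1.66 in PFC (0 to 21.7) and 3.08 in striatum (0 to 26.3). Npy5r, which promotes feeding in the hypothalamus, had medians of 6.47 CPM in hippocampus (0 to 195), 3.67 in hypothalamus (0 to 12.5), 1.52 in PFC (0 to 11.3) and 2.65 in striatum (0.351 to 11.0). All ranges overlapped. In the joint edgeR fit the log2 difference of hypothalamus against hippocampus was -1.18 for Npy1r (SE 0.18, adjusted p 2.73e-09), -0.77 for Npy2r (SE 0.30, adjusted p 0.0199) and -1.26 for Npy5r (SE 0.30, adjusted p 0.000109). The hippocampus also exceeded PFC by 1.85 to 1.93 and striatum by 1.19 to 1.38 (adjusted p of at most 0.000623). With library size as the only scaling the Npy2r difference to the hypothalamus was -0.50 (adjusted p 0.151). Hypothalamus and striatum were neighbours that did not pass the test for any of the 3 (log2 differences of 0.20, 0.42 and 0.03), although with library size as the only scaling Npy1r (0.67, adjusted p 0.00134) and Npy2r (0.80, adjusted p 0.021) did.

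Over the 9 receptors that could be fitted jointly, 38 of 54 comparisons of level were called. They were 8 of 9 between hypothalamus and hippocampus (background 65.5% of the 19478 genes tested), 6 of 9 between hypothalamus and PFC (67.9%), 6 of 9 between hypothalamus and striatum (65.1%), 5 of 9 between hippocampus and PFC (46.3%), 8 of 9 between hippocampus and striatum (45.4%) and 5 of 9 between PFC and striatum (52.7%). With so many genes called between any pair of regions, these counts are near the background in most pairs. In SAL-SAL libraries alone 13 of 54 were called. That fit holds only 11, 13, 10 and 13 libraries by region and its share over all genes is not given. The lower count is therefore not read as a result about the receptors. The joint fit took libraries of the same animal as separate. Fewer levels were called with the animal as a block over animals with both regions (given at the end). Of the 5 calls between PFC and striatum, those of Lepr, Insr, Npy1r and Npy2r were each lost under at least 1 other scaling or filter. The scaling matters here because it moved the median over all genes: with library size alone that median rose by 0.44 on the log2 scale for hypothalamus against striatum, 0.30 for hypothalamus against PFC, 0.26 for hypothalamus against hippocampus, 0.19 for hippocampus against striatum and 0.14 for PFC against striatum.

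Of the 39 receptor and region combinations that could be tested for an effect of condition, few passed. Counted over the 4 regions, edgeR called 0 for MOR-SAL against SAL-SAL (5 at an unadjusted p under 0.05; DESeq2 called 1), 0 for MOR-LPS against SAL-LPS (3 unadjusted; DESeq2 0), 2 for SAL-LPS against SAL-SAL (8 unadjusted; DESeq2 1), 1 for MOR-LPS against MOR-SAL (6 unadjusted; DESeq2 1) and 0 for the LPS response of morphine-exposed less that of saline-exposed animals (6 unadjusted; DESeq2 0). Fold changes of the receptors were of both signs in each of these comparisons, with 22, 21, 22, 24 and 19 of 39 above 0. Over all genes tested in a region, the share called ran from 0% (hippocampus, PFC and striatum) to 1.44% (hypothalamus) for the first comparison, from 0% (striatum) to 2.73% (hippocampus) for the second, from 0% (PFC) to 2.55% (hippocampus) for the third, from 0.0184% (PFC) to 6.27% (hypothalamus) for the fourth and from 0.00854% (striatum) to 3.8% (hypothalamus) for the last. These comparisons share groups (SAL-SAL, for instance, serves as control in both the first and the third), so their values are given side by side and not compared.

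**Figure D2:**
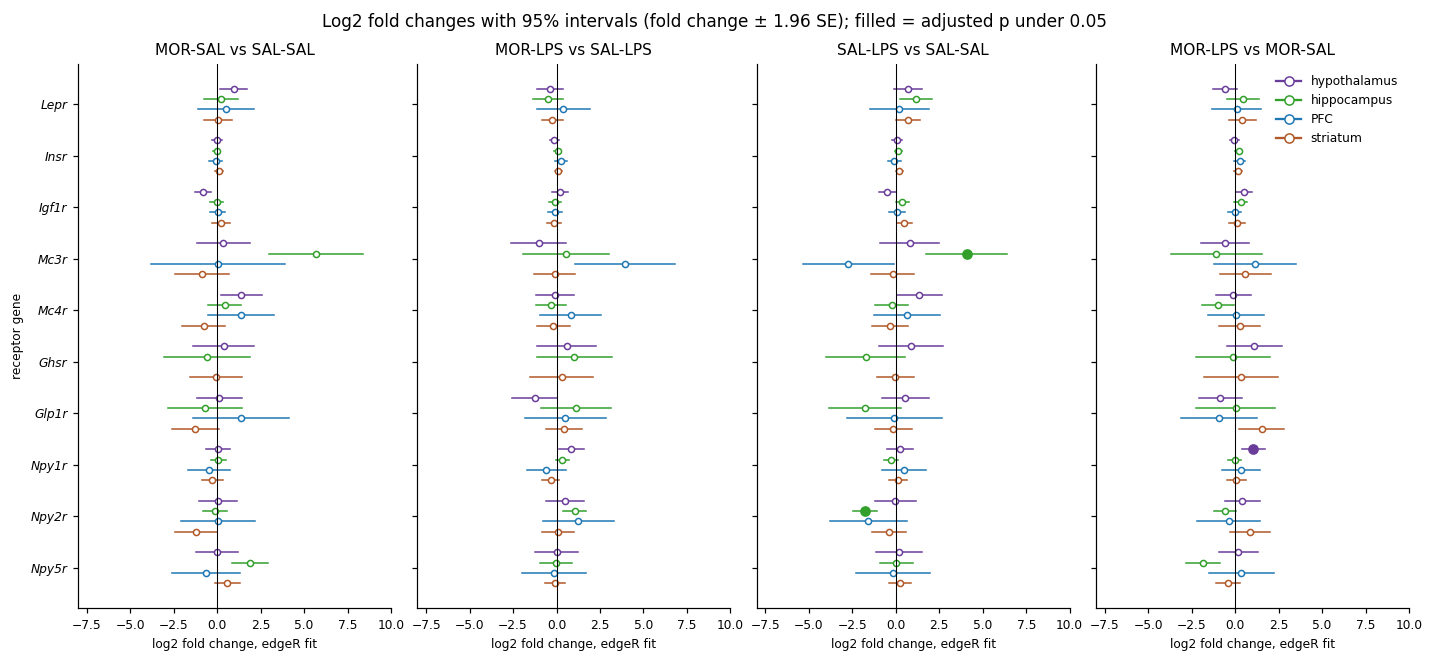
Log2 fold change of each receptor in each region for the 4 comparisons of conditions, from the edgeR fit, with lines for the 95% interval and filled points for an adjusted p under 0.05. Filled are Npy2r (-1.76) and Mc3r (a fitted 4.07 against libraries all at 0) in hippocampus for SAL-LPS vs SAL-SAL and Npy1r (1.04) in hypothalamus for MOR-LPS vs MOR-SAL, and low-count receptors such as Mc3r and Glp1r have the widest lines.

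Npy2r in the hippocampus fell after LPS in saline-exposed animals. Npy2r ranged from 0.497 to 54.3 CPM in 13 SAL-SAL libraries (median 16.6) and from 0.998 to 7.94 CPM in 14 SAL-LPS libraries (median 4.00). All 14 SAL-LPS values were below the SAL-SAL median and 11 of 13 SAL-SAL values were above the highest SAL-LPS value, so the groups overlapped only through the 2 lowest SAL-SAL libraries. The log2 fold change was -1.76 (SE 0.35, edgeR quasi-likelihood test, Benjamini-Hochberg adjusted p 0.0265, where 2.55% of the 22076 hippocampal genes tested were called).

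In morphine-exposed animals the hippocampal Npy2r values lay closer together. MOR-SAL libraries ranged from 0 to 35.7 CPM (median 11.0, n = 12) and MOR-LPS libraries from 1.49 to 21.8 CPM (median 10.7, n = 16), so that their medians almost coincided and their ranges overlapped widely. The LPS response in these animals was -0.58 (SE 0.33, adjusted p 0.448), and 0.467% of genes were called in that comparison. MOR-LPS lay above SAL-LPS by 1.04 (SE 0.33, adjusted p 0.0642, edgeR; background 2.73%), 11 of 16 values exceeding the highest SAL-LPS value. The difference between the exposures in the LPS response itself was 1.18 (SE 0.48, adjusted p 0.219, edgeR; background 2.35%) and was not called.

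The sum of 5 marker genes of hippocampal neurons had its lowest median in SAL-LPS as well. The summed level of the 5 markers (all 5 detected: Prox1, Wfs1, C1ql2, Zbtb20, Iyd) had a median of 1942 CPM in SAL-SAL (141 to 4036), 1268 in SAL-LPS (212 to 2896), 2106 in MOR-SAL (1130 to 3220) and 1991 in MOR-LPS (892 to 3997). Most of this sum is Zbtb20, with a median of 1645 CPM in hippocampus, against a summed median of 1920, and of 330 to 516 CPM in the other regions. Wfs1 was lower in hippocampus (35.1 CPM) than elsewhere (42.0 to 72.1). Their part in the Npy2r result was not tested. The call was lost without number group 3 (-1.51, adjusted p 0.0701), in each sex alone (females -1.505, adjusted p 0.380; males -2.09, adjusted p 0.053) in the fit of the 2 groups alone (-1.79, adjusted p 0.0832) and in 3 limma fits to log2 CPM (-1.61 to -1.46, adjusted p 0.129 to 0.236), and it stood without any single library (-1.90 to -1.505, adjusted p up to 0.034, edgeR). The call was also lost with the number group as a replicate block. Over all alternatives the fold change stayed between -2.09 and -1.46, with adjusted p from 0.000632 to 0.380.

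**Figure D3:**
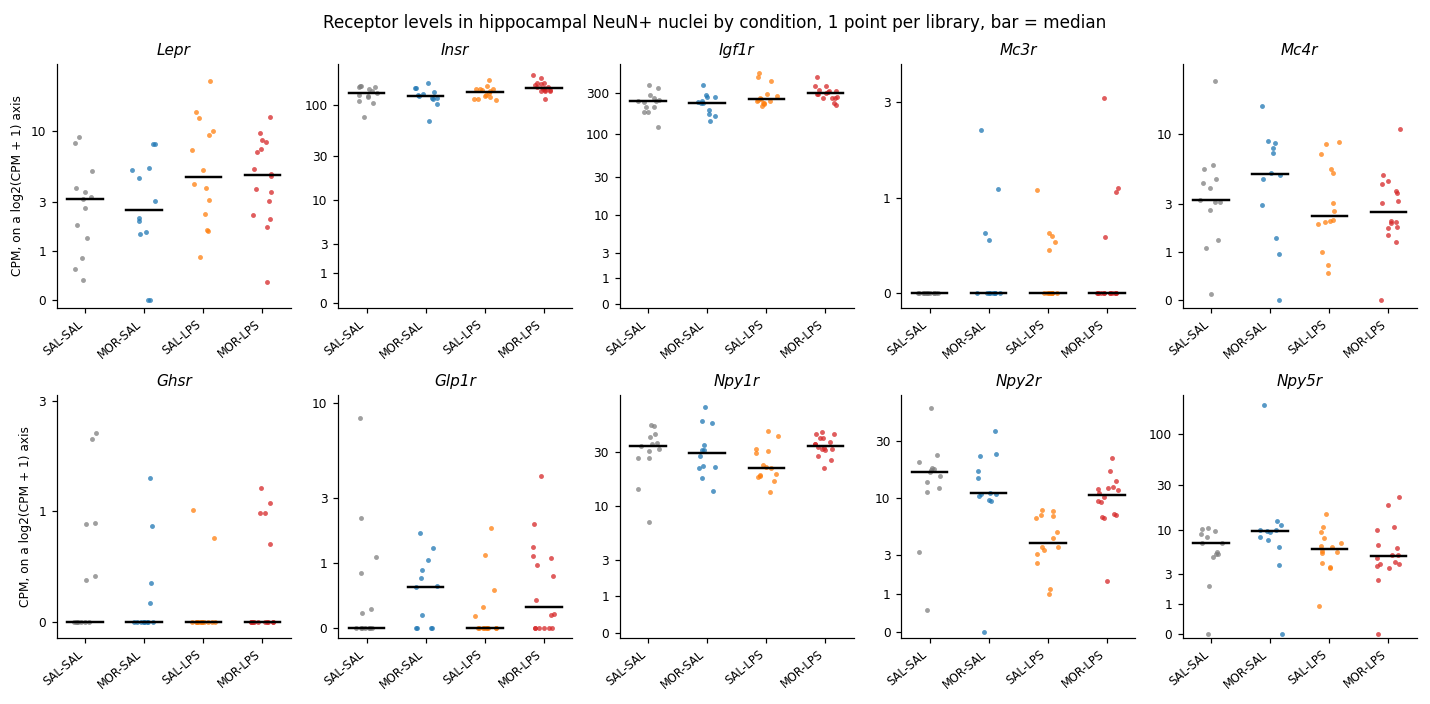
Level of each receptor in every hippocampal library by condition, in CPM on a log2(CPM + 1) axis, with bars at the medians (12 MOR-SAL, 13 SAL-SAL, 16 MOR-LPS and 14 SAL-LPS libraries). The SAL-LPS values of Npy2r (median 4.00 CPM) form the lowest group of that panel, Npy5r has 1 MOR-SAL library at 195 CPM, and Mc3r is at 0 in all 13 SAL-SAL libraries.

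Npy1r in hypothalamus was the other Y receptor called. It ranged from 1.86 to 24.7 CPM in 14 MOR-SAL libraries (median 13.5) and from 5.06 to 105 CPM in 14 MOR-LPS libraries (median 17.2). The groups overlapped: 11 of 14 MOR-LPS values were above the MOR-SAL median, and 5 were above the highest MOR-SAL value, among them 105 CPM in library 6-0, 66.3 in 8-3, 49.0 in 14-0 and 34.9 in 16-2. Npy1r was higher in MOR-LPS by 1.04 on the log2 scale (SE 0.33, adjusted p 0.0463, edgeR; 6.27% of 28859 hypothalamic genes were called). In saline-exposed animals the medians were 12.5 CPM in SAL-SAL (3.59 to 31.6) and 12.9 in SAL-LPS (0 to 25.7), with a log2 fold change of 0.25 (SE 0.39, adjusted p 0.893), and the difference between the responses was 0.79 (SE 0.52, adjusted p 0.517, edgeR).

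The Npy1r call lay at the threshold. Without library 6-0 the fold change was 0.78 (adjusted p 0.138) and without number group 6 it was 0.65 (adjusted p 0.284). In all, 17 of 51 single libraries (6-0, 8-3, 17-0, 6-1, 6-3, 16-2, 8-0, 16-1, 13-1, 14-0, 1-4, 12-1, 16-0, 16-3, 3-3, 10-0 and 11-0) and 10 of 17 number groups each ended the call when left out, with adjusted p of up to 0.138 and 0.284. The fold change over all these refits was 0.78 to 1.14 without single libraries and 0.65 to 1.33 without number groups. It was 0.27 (adjusted p 0.866) in females and 1.74 (adjusted p 0.0308) in males. Several marker sums differed between the same groups: the 5 hippocampal markers summed to a median of 545 CPM in MOR-LPS (212 to 2592) against 439 in MOR-SAL (266 to 527), the 4 cortical markers to 40.5 (6.76 to 369) against 7.70 (1.87 to 27.1), and the 5 astrocyte markers to 175 (14.6 to 618) against 27.1 (13.2 to 45.1). The 6 striatal markers were lower in MOR-LPS, with a median of 91.2 (59.2 to 164) against 195 (90.0 to 439), as were the 9 hypothalamic markers (42.4 against 123), and the 9 thalamic markers were level (359 against 360). Library 6-0 had the highest hippocampal marker sum of the 51, at 2592 CPM, and 8-3 and 14-0 had 1413 and 1135. Zbtb20 was the largest of the 5 hippocampal markers in hypothalamus too, with a median of 330 CPM against a summed median of 402. The part of these markers in the Npy1r difference was not tested.

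**Figure D4:**
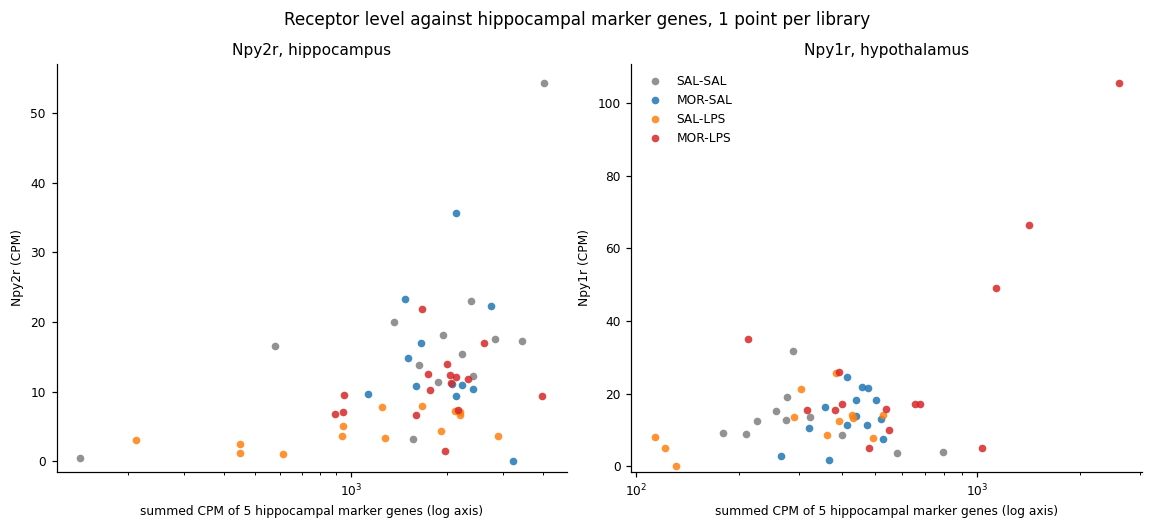
Level of Npy2r in 55 hippocampal libraries (left) and of Npy1r in 51 hypothalamic libraries (right), in CPM, against the summed CPM of 5 hippocampal marker genes on a log axis, with 1 point per library coloured by condition. On the left the SAL-LPS points stay at or below 7.94 CPM across their marker range (212 to 2896 CPM), and on the right the 3 highest Npy1r values (49.0, 66.3 and 105 CPM) belong to MOR-LPS libraries with marker sums of 1135 to 2592 CPM.

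Mc3r in hippocampus was called on few counts. It was at 0 in all 13 SAL-SAL libraries, whose totals together allow up to 3 counts, and detected in 5 of 14 SAL-LPS libraries with 30 counts in all, none of them above 1.11 CPM. In counts pooled over each group that is at least 9.74-fold higher in SAL-LPS, by counting error only and without the spread between animals. The edgeR test gave an adjusted p of 0.0493. With an adjusted p this near the threshold, the call was lost without any 1 of 40 of the 55 libraries and 13 of the 18 number groups, while the fitted log2 value, 4.07 over all libraries, stayed between 3.38 and 4.26 in all those refits. DESeq2 gave an adjusted p of 0.420. MOR-SAL held 51 counts in 4 of 12 libraries, 34 of them in library 8-0. In pooled counts, with the same limit, that is at least 24.3-fold over SAL-SAL. The edgeR test gave an adjusted p of 0.0712, and no hippocampal gene was called in that comparison (0%). MOR-LPS held 49 counts in 4 of 16 libraries.

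The receptors for leptin and IGF1 were the ones nearest to a call for morphine exposure in the hypothalamus, in opposite directions. Igf1r ranged from 11.5 to 116 CPM in 11 SAL-SAL libraries (median 36.6), 17.0 to 40.4 in 14 MOR-SAL (median 27.4), 0 to 52.1 in 12 SAL-LPS (median 26.8) and 19.6 to 60.9 in 14 MOR-LPS (median 38.2). MOR-SAL was the narrowest group and lay inside the SAL-SAL range, 11 of its 14 values being below the SAL-SAL median. The log2 fold change of MOR-SAL against SAL-SAL was -0.81 (SE 0.24, adjusted p 0.0612, edgeR; background 1.44%), which DESeq2 called (adjusted p 0.0355), and it was -0.28 (adjusted p 0.666) without number group 10, whose libraries 10-3 (116 CPM) and 10-1 (65.8 CPM) were the highest of all 51 and the highest but 2. The 9 thalamic markers summed to a median of 822 CPM in SAL-SAL (176 to 4783) against 360 in MOR-SAL (173 to 1478), and to 3540 and 4783 CPM in libraries 10-3 and 10-1. Their part in the Igf1r difference was not tested. The LPS response of Igf1r was -0.49 in saline-exposed and 0.52 in morphine-exposed animals, a difference of 1.01 (SE 0.34, adjusted p 0.0776, edgeR; background 3.8%), which was 0.49 (adjusted p 0.566) without number group 10.

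Lepr in hypothalamus ran from 0 to 25.2 CPM in SAL-SAL (median 8.86), 3.75 to 31.1 in MOR-SAL (median 21.3), 5.33 to 130 in SAL-LPS (median 14.1) and 0.774 to 50.6 in MOR-LPS (median 10.2). MOR-SAL was the highest group, 13 of its 14 values being above the SAL-SAL median, and the ranges overlapped. The log2 fold change of 0.95 (SE 0.39, adjusted p 0.178) did not pass the test, and 9 hypothalamic markers had a higher summed median in MOR-SAL too (123 CPM, 1.38 to 210, against 46.8 in SAL-SAL, 0.347 to 244; 60.7 in SAL-LPS and 42.4 in MOR-LPS). Their part in it was not tested. The difference between the LPS responses was -1.30 (SE 0.55, adjusted p 0.197, edgeR).

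**Figure D5:**
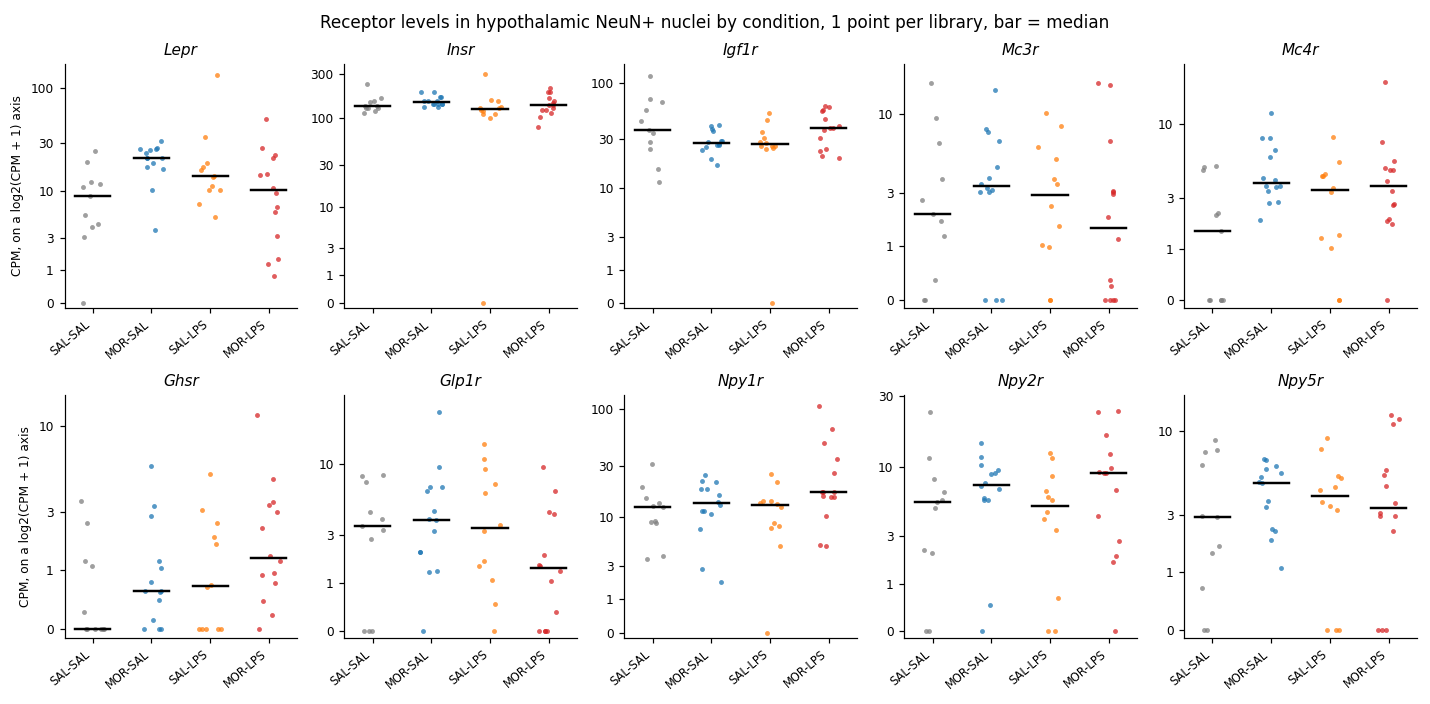
Level of each receptor in every hypothalamic library by condition, in CPM on a log2(CPM + 1) axis, with bars at the medians (14 MOR-SAL, 11 SAL-SAL, 14 MOR-LPS and 12 SAL-LPS libraries). Groups overlap in every panel. The medians of Lepr run from 8.86 CPM in SAL-SAL to 21.3 in MOR-SAL, and the highest Npy1r values (up to 105 CPM) are MOR-LPS libraries.

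Mc4r in the hypothalamus was at 0 in 5 of 11 SAL-SAL libraries (median 1.56 CPM, highest 5.19), whereas all 14 MOR-SAL libraries held it (2.00 to 11.8 CPM, median 3.93) and were above the SAL-SAL median. Of those 5 libraries, 1-1 and 4-3 were of low depth, where 3 counts are 1.73 and 18.8 CPM. The 9 hypothalamic markers had the higher summed median in MOR-SAL given for Lepr, and their part in the Mc4r values was not tested. The medians were 3.50 CPM in SAL-LPS (0 to 8.24) and 3.73 in MOR-LPS (0 to 18.6), so that SAL-SAL was the low group. The log2 fold changes against SAL-SAL were 1.39 for MOR-SAL (SE 0.60, adjusted p 0.200) and 1.35 for SAL-LPS (SE 0.66, adjusted p 0.333; background 0.246%), and neither passed (edgeR). The second was 0.61 (adjusted p 0.877) without number group 10.

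The other hypothalamic receptors did not pass in any comparison by edgeR. Insr had medians of 133 CPM in SAL-SAL, 146 in MOR-SAL, 123 in SAL-LPS and 138 in MOR-LPS, with fold changes between -0.12 and 0.08 on the log2 scale and standard errors of 0.14 to 0.15 in the 4 comparisons of conditions. Mc3r, Ghsr, Glp1r, Npy2r and Npy5r had medians between 0 and 9.05 CPM in the 4 groups and standard errors of 0.51 to 0.94, so that smaller changes were not detectable at this depth. For MOR-LPS against SAL-LPS, fold changes of the 10 receptors ran from -1.25 (Glp1r, adjusted p 0.396, but -2.58 and called by limma-voom, adjusted p 0.0335) to 0.84 (Npy1r, adjusted p 0.250), with 0 called by edgeR (1 at an unadjusted p under 0.05) where the background was 1.03%.

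In the hippocampus Npy5r showed how far 1 library can carry a low receptor. It ranged from 0 to 10.47 CPM in SAL-SAL (median 7.02), 0 to 195 in MOR-SAL (median 9.59), 0.873 to 14.7 in SAL-LPS (median 6.11) and 0 to 22.5 in MOR-LPS (median 4.95). The 195 CPM, 1270 counts, belonged to library 7-2, labelled female but with Y-linked counts, and the next highest of the 55 was 22.5 CPM. MOR-LPS lay below MOR-SAL by a log2 fold change of -1.84 (SE 0.49, adjusted p 0.0582, edgeR), which was -0.38 (adjusted p 0.837) without library 7-2, and MOR-SAL above SAL-SAL by 1.86 (adjusted p 0.1001), which was 0.44 (adjusted p 0.9747) without it. Lepr, with medians of 3.22 CPM in SAL-SAL (0.331 to 9.02) and 4.74 in SAL-LPS (0.850 to 21.2), had a fold change of 1.17 (SE 0.48, adjusted p 0.165). Igf1r had 241 CPM in SAL-SAL (118 to 381) and 255 in SAL-LPS (214 to 521), a fold change of 0.38 (SE 0.18, adjusted p 0.243). Hippocampal Insr and Npy1r did not pass in any comparison, with fold changes from -0.28 to 0.32.

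In PFC and striatum no receptor was called in any comparison of conditions. For MOR-SAL against SAL-SAL the background itself was 0% in PFC and 0% in striatum. For MOR-LPS against SAL-LPS it was 0.0046% and 0%, for SAL-LPS against SAL-SAL 0% and 0.0128%, for MOR-LPS against MOR-SAL 0.0184% and 1.39%, and for the difference between the LPS responses 1.78% and 0.00854%, in that order of regions. At an unadjusted p under 0.05 edgeR had 3 receptor results in PFC, each of Mc3r, and 3 in striatum. Mc3r in PFC was detected in 7 of 10 SAL-SAL (0 to 3.85 CPM, median 0.993), 3 of 10 SAL-LPS (0 to 1.28, median 0) and 8 of 16 MOR-LPS libraries (0 to 7.95, median 0.439), with fold changes of -2.73 (SE 1.35, adjusted p 0.385) for SAL-LPS against SAL-SAL and 3.94 (SE 1.46, adjusted p 0.184) for MOR-LPS against SAL-LPS.

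In striatum, Igf1r had a median of 268 CPM in SAL-SAL (99.8 to 403), 278 in MOR-SAL (211 to 391), 375 in SAL-LPS (119 to 524) and 314 in MOR-LPS (137 to 527). SAL-LPS was the highest group, overlapping the others, with a fold change of 0.49 over SAL-SAL (SE 0.22, adjusted p 0.366). Lepr had a median of 3.08 CPM in SAL-SAL (1.98 to 10.51) and 5.02 in SAL-LPS (2.40 to 15.3), a fold change of 0.70 (SE 0.35, adjusted p 0.417), and Glp1r was 1.39 CPM in MOR-LPS (0 to 9.24) against 0.684 in MOR-SAL (0 to 2.28), a fold change of 1.52 (SE 0.67, adjusted p 0.219, edgeR). None of these passed. Insr had striatal medians of 138 CPM in SAL-SAL (113 to 173), 136 in MOR-SAL (113 to 154), 147 in SAL-LPS (141 to 174) and 161 in MOR-LPS (121 to 254). In MOR-LPS 13 of 18 values were above the highest MOR-SAL value, and all 15 SAL-LPS values were above the SAL-SAL median. The fold change of MOR-LPS against MOR-SAL was 0.19 (SE 0.12, adjusted p 0.398, edgeR), but with library size as the only scaling, which moved the median over all genes by 0.18, it was 0.38 and called (adjusted p 0.0354).

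Whether a response differed between regions was tested directly. Of 54 differences between regions in the LPS response, averaged over the exposures, edgeR called 0 (6 at an unadjusted p under 0.05; DESeq2 0; background 1.31% over the 6 region pairs), and of 54 differences in the exposure effect, averaged over the challenges, it called 1 (6 unadjusted; DESeq2 0; background 1.15%). The 1 was Mc3r, whose exposure effect in hippocampus exceeded that in striatum by 3.50 on the log2 scale (SE 0.93, adjusted p 0.0424), where the hippocampal SAL-SAL libraries were all at 0. The LPS response of Npy2r, averaged over the exposures, differed between hypothalamus and hippocampus by 1.33 (SE 0.60, adjusted p 0.281), between hippocampus and striatum by -1.40 (SE 0.61, adjusted p 0.547) and between hippocampus and PFC by -0.18 (SE 0.63, adjusted p 0.992), and none was called. The response of saline-exposed animals alone was not compared between regions.

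Sex made no called difference to any receptor, but the labels limit this test. Y-linked counts went against the labelled sex in 3 hypothalamic, 7 hippocampal and 2 PFC libraries. Of the 18 number groups 17 hold 1 sex, so sex and number group can hardly be told apart. Between females and males edgeR called 0 of 39 receptor results (3 at an unadjusted p under 0.05; DESeq2 0), where the background was 3.45% in hypothalamus, 2.51% in hippocampus, 0.709% in PFC and 0.841% in striatum. Hypothalamic Mc3r (-1.25, SE 0.60, adjusted p 0.293) and Mc4r (-0.89, SE 0.43, adjusted p 0.292) had lower fitted values in females, and Mc3r in PFC a higher one (2.11, SE 1.01, adjusted p 0.357).

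Of the hormones and peptides that these receptors bind, most were scarce in neuronal nuclei. Among 13 ligand and precursor genes, Lep, Ins1, Ins2, Igf2, Gcg, Pyy and Ppy had a median of 0 CPM in all 4 regions, Igf1 had medians of 6.92 to 11.9, and Npy was highest in PFC (49.5 CPM, against 4.17 in hypothalamus, 9.91 in hippocampus and 11.0 in striatum). In the hypothalamus the medians of Pomc, the melanocortin precursor, and Agrp, which encodes the natural antagonist of Mc3r and Mc4r, were only 1.15 and 2.84 CPM. Of 37 combinations of ligand and region tested, 2 at most were called in any comparison. Pomc, 1 of 8 hypothalamic ligand genes tested, was called for the difference between the LPS responses (log2 -4.19, SE 1.26, adjusted p 0.0431, edgeR; background 3.8%), with medians of 1.01 CPM in SAL-SAL, 2.35 in MOR-SAL, 1.76 in SAL-LPS and 0.275 in MOR-LPS. The 9 hypothalamic markers were also highest in MOR-SAL and lowest in MOR-LPS by their summed median (46.8 CPM in SAL-SAL, 123 in MOR-SAL, 60.7 in SAL-LPS and 42.4 in MOR-LPS), and their part in the Pomc result was not tested. Gcg in hippocampus (20 counts in SAL-LPS, 6 in MOR-LPS and 0 in the other groups) and Lep in hypothalamus (23 counts in MOR-LPS, 1 in MOR-SAL and 0 in the other groups) were called for SAL-LPS against SAL-SAL and for MOR-LPS against SAL-LPS. Each passed the filter on low counts only through the group where it is high, which fixed the direction, so no test is given for them. Where no ligand was called in any region, the smallest p belonged to Lep in hypothalamus for MOR-LPS against MOR-SAL, with the same limit, and to Igf2 in PFC for MOR-SAL against SAL-SAL (-2.76, adjusted p 0.248, edgeR).

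The 34 genes of leptin, insulin and IGF signalling were tested in all regions. In MOR-LPS against MOR-SAL 4 of 136 gene and region combinations rose and 0 fell: Foxo1, a transcription factor restrained by insulin (1.29, SE 0.35, adjusted p 0.0183), Grb14, an adaptor that inhibits Insr (0.71, SE 0.21, adjusted p 0.0293), and Irs2, the docking protein of activated Insr and Igf1r (0.58, SE 0.17, adjusted p 0.03), in hypothalamus, and Socs3, a feedback inhibitor of leptin signalling (3.93, SE 1.08, adjusted p 0.0481), in striatum. These are 3 of 34 genes in hypothalamus, where 6.27% of all genes were called, and 1 of 34 in striatum, where 1.39% were. Irs2 went from a median of 41.1 CPM in MOR-SAL (24.6 to 71.1) to 61.8 in MOR-LPS (39.6 to 81.7), overlapping ranges. Striatal Socs3 went from 0 (0 to 0.331) to 0.521 CPM (0 to 4.01), with 5 and 198 counts in 8 and 18 libraries. Striatal microglia, astrocyte and oligodendrocyte markers had summed medians of 17.7, 41.3 and 529 CPM in MOR-LPS against 7.04, 19.2 and 268 in MOR-SAL. Neuronal and thalamic markers went the other way (4095 against 4448 and 4238 against 4726). The part of these markers in the Socs3 result was not tested. The median log2 fold change of the 34 genes in hypothalamus was 0.09, against 0.00276 over all genes, with 22 of 34 above 0.

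In MOR-SAL against SAL-SAL 0 of 136 rose and 2 fell, both in hypothalamus (2 of 34, background 1.44%): Shc3, a neuronal adaptor of receptor kinases (-1.29, SE 0.31, adjusted p 0.0196) and Irs2 (-0.70, SE 0.18, adjusted p 0.0324), where Irs2 had 56.4 CPM in SAL-SAL (40.6 to 105) against the 41.1 of MOR-SAL. Irs2 was also called for the difference between the responses (0.85, SE 0.26, adjusted p 0.0455), as was Grb14 (1.35, SE 0.32, adjusted p 0.00865), 2 of 34 against a background of 3.8%. In SAL-LPS against SAL-SAL 2 of 136 rose, both in hippocampus (2 of 34, background 2.55%): Stat3, the transcription factor that leptin and cytokine receptors activate (1.02, SE 0.24, adjusted p 0.0268), from a median of 37.1 CPM (22.9 to 63.2) to 61.3 (21.8 to 235), and Tsc1, which restrains mTOR (0.49, SE 0.12, adjusted p 0.0268, edgeR), from 143 (111 to 174) to 197 CPM (133 to 283). The hippocampal markers had the lower summed median in SAL-LPS given for Npy2r. Their part in the Stat3 and Tsc1 values was not tested.

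Of 30 accessory proteins and related receptors, those called between conditions were all hypothalamic. In MOR-LPS against MOR-SAL 2 of 107 combinations rose, Ramp1, a partner of calcitonin-family receptors (2.18, SE 0.53, adjusted p 0.00931), and Adipor2, an adiponectin receptor (1.13, SE 0.34, adjusted p 0.0321), and 1 fell, Mrap2, which promotes Mc4r signalling (-0.91, SE 0.29, adjusted p 0.0452, edgeR). These are 3 of 28 genes tested, where 6.27% of all hypothalamic genes were called. Mrap2 had medians of 33.3 CPM in SAL-SAL (3.54 to 94.1), 50.9 in MOR-SAL (31.2 to 63.6), 44.1 in SAL-LPS (14.2 to 130) and 23.4 in MOR-LPS (2.27 to 48.0), the last being the lowest group, with overlap. The 9 hypothalamic markers summed to a median of 42.4 CPM in MOR-LPS (0.723 to 262) against 123 in MOR-SAL (1.38 to 210), and the hippocampal, cortical and astrocyte markers had the higher medians in MOR-LPS given above for Npy1r. The part of these markers in the hypothalamic results of both gene lists was not tested. For the difference between the LPS responses Mrap2 (-1.51, adjusted p 0.0364) and the orexin receptor Hcrtr2 (-1.79, adjusted p 0.0328) were negative and Ramp3 (3.33, adjusted p 0.0307) was positive, 3 of 28 against a background of 3.8%. In MOR-SAL against SAL-SAL Ramp3 fell (-2.42, SE 0.66, adjusted p 0.042; 1 of 28, background 1.44%). In that comparison the 9 thalamic markers had the lower summed median in MOR-SAL given for Igf1r, and the 5 choroid plexus markers had 9.88 CPM (3.03 to 19.8) against 39.8 in SAL-SAL (0.295 to 323). Their part in the lower Ramp3, Shc3 and Irs2 values was not tested. In MOR-LPS against SAL-LPS 1 of 28 was called (background 1.03%), Npy4r, another Y receptor, which held 48 counts in SAL-LPS and 1 to 4 in each other group and passed the filter only through SAL-LPS, so no test is given. In SAL-LPS against SAL-SAL edgeR called none, and the smallest p was that of Atrnl1 in hypothalamus (-0.96, SE 0.25, adjusted p 0.054). Between the sexes, 4 of 107 accessory genes, 5 of 136 signalling genes and 2 of 37 ligand genes were called, where the background by region was the 0.709% to 3.45% given above. The limits of the sex labels given for the receptors hold here too. Gab1, an adaptor of receptor kinases, was higher in females in hypothalamus (1.64), hippocampus (0.96) and striatum (1.44). Also called were Adipor2 (1.15), Igf2r (-0.37) and, on few counts, Mrap in hypothalamus, Mrap (3.68) and Stat5b (0.56) in hippocampus, Igf2 (3.75) in PFC and Lep (-3.10) in striatum.

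Across 48 hypothalamic libraries, without the 3 of low depth, and after removing the mean of each condition and sex, the genes whose levels ran most like each receptor among 13109 were Fbxo10, Anapc1 and Fzd3 for Lepr (Pearson r 0.80 each), Ep300, Celsr2 and Raver1 for Insr (0.76, 0.76 and 0.75), and Atp2b1 and RP24-174D16.1 for Igf1r (0.81 and 0.80). For Npy1r they were Nvl, Fn3krp and Zfp738 (0.70, 0.68 and 0.66), and for Npy2r Nucb2, Ucp2 and Islr2 (0.77, 0.74 and 0.73). The points share library depth and the makeup of the punch, and the values are a description of these libraries. The receptors themselves ran less alike, with r of 0.37 between Lepr and Insr, 0.37 between Lepr and Npy2r and -0.21 between Lepr and Igf1r.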

How the data were processed

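Neuronal (NeuN+) nuclei were sorted from tissue punches (bilateral in PFC, hippocampus and striatum, adjacent to each other in hypothalamus) and their RNA was sequenced with a modified Smart-seq3 protocol. Per the submitters' processing notes, the authors trimmed reads with Trim Galore 0.6.7, aligned them to mm10 with STAR 2.7.10a and deposited raw counts per gene, with HTSeq 0.12.4 and DESeq2 1.40.2 also named there. The deposited CPM (scaled to each library's total, without the 37 mitochondrial genes) were recomputed from the counts and differed by at most 2.3e-15 of their value. Levels are given in CPM, and tests were run on the counts. Positions and exon lengths came from GENCODE M21.

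Within each region, genes with a total count above 10 were fitted with edgeR 4.0.16 (quasi-likelihood, TMM scaling, 4 conditions and sex, all libraries sharing 1 estimate of the spread), and p-values were adjusted by Benjamini-Hochberg over all genes, with calls at 0.05. The difference of LPS responses is MOR-LPS minus MOR-SAL, less SAL-LPS minus SAL-SAL. Levels and responses were compared between regions in 1 joint fit of 16 groups and sex, over 19478 genes that passed the filter in every table. Alternatives used DESeq2 1.42.0, limma 3.58.1, other scalings and filters, a replicate block and left-out libraries or number groups (hypothalamus and hippocampus) (R 4.3.3). The edgeR and limma fits were tried on counts simulated from hypothalamic means and depths, as a check of the code only. Each mouse is a separate sample, but litter mates may be among them, and litters could not be assigned here.

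The receptors and gene lists were chosen with earlier results of these data known. All 10 receptors are named. Genes of the other lists are named where called, and otherwise the gene with the smallest p is named only where the list had no call in any region. The 3 genes most like a receptor were taken by Pearson correlation of log2(CPM + 1) among genes of at least 5 CPM. Some genes that these rules select are not reported here. For libraries of the same animal in 2 regions, deviations from the group means correlated at a mean of -0.0017 to 0.0896 over the 6 region pairs.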

Additional observations from a re-analysis of the deposited data

Results flagged for a closer look

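In PFC, 1 SAL-SAL library (9-0) held 10.2 CPM of Glp1r where the next was 2.11 CPM, and another (4-1) held 14.7 CPM of Npy2r where the next was 5.75 CPM. Also in PFC, 1 SAL-LPS library (1-0) held 6.90 CPM of Npy2r against 2.17 CPM in the next. In striatum, 1 MOR-SAL library (18-0) held 0.662 CPM of Ghsr, which is 8 counts. Each stood apart from its group of 8 or 10 libraries by Dixon's criterion, which was applied only to groups of at most 10 libraries. Of 28 receptor and group combinations 4 met it, where chance would give about 1.4 at 1 in 20. That rate holds for normally distributed values, which these low counts are not, so no excess is read from it.

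The exposure effect on Mc3r differed between hippocampus and striatum by 3.50 on the log2 scale (adjusted p 0.0424, edgeR), with the hippocampal SAL-SAL libraries all at 0. DESeq2 gave 3.32 (adjusted p 0.454).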

How the results depend on the processing

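Over the 31 receptor results with an unadjusted p under 0.05, 410 of 451 alternative values kept their direction and their side of the threshold, 27 lost the call, 11 gained it and 3 changed sign: Mc3r in hippocampus for the difference of LPS responses in females (0.99), hypothalamic Mc3r for sex with limma-voom (0.0303) and hypothalamic Mc4r for SAL-LPS against SAL-SAL in males (-0.12). All 27 losses were on the 3 called results: 7 of 16 alternatives for hippocampal Npy2r, 10 of 13 for hippocampal Mc3r and 10 of 16 for hypothalamic Npy1r. Mc3r for MOR-SAL against SAL-SAL in hippocampus gave no value in females. Of the 234 receptor results of the region fits, 25 turned sign with library size alone or DESeq2's size factors; 0 of them were called and none was among those 31 (lowest adjusted p 0.773). Library size alone moved the median over all genes by -0.17 to 0.26 on the log2 scale in the comparisons within regions. The cause was not tested.

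The number of receptors called moved as follows. For SAL-LPS against SAL-SAL it was 2 (Npy2r and Mc3r in hippocampus), but 1, Npy2r, with DESeq2, filterByExpr, limma-voom, no filter, or without the libraries of low depth or of contrary sex label, and 0 in either sex alone, in the 3 limma fits to log2 CPM, in the fit of the groups compared and with the number group as a replicate block (Npy2r -1.93, adjusted p 0.0564). For MOR-LPS against MOR-SAL it was 1 (Npy1r in hypothalamus), but 0 in females, with filterByExpr, limma-voom, the groups compared, the number block or without libraries of contrary sex label, and 2 without a sex term, with Npy5r in hippocampus. With library size alone and in the 3 limma fits to log2 CPM the count was also 1, but Npy1r was not called and Insr in striatum was (0.36 to 0.38, adjusted p 0.0119 to 0.0354). For MOR-LPS against SAL-LPS it was 0, but 1 with library size alone or no sex term (Npy2r in hippocampus) and with limma-voom (Glp1r in hypothalamus, -2.58, adjusted p 0.0335). For MOR-SAL against SAL-SAL it was 0, but 1, Igf1r in hypothalamus, with DESeq2, its size factors, females, no sex term or without libraries of low depth. For the difference of LPS responses it was 0, but 1, again Igf1r in hypothalamus, with DESeq2's size factors, females or without libraries of low depth. For sex it was 0 under every alternative run. Leaving out single libraries or number groups of hypothalamus or hippocampus (PFC and striatum were not refitted) gave 0 to 2 calls for SAL-LPS against SAL-SAL and for MOR-LPS against MOR-SAL, 0 to 1 for MOR-SAL against SAL-SAL, MOR-LPS against SAL-LPS and the difference, and 0 to 0 for sex. The hippocampal refits were chosen after seeing the data.

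Between regions, 38 receptor levels differed, 29 with the animal as a replicate block, 32 with library size alone and 13 in SAL-SAL libraries. The SAL-SAL fit holds fewer libraries, and its share over all genes is not given. The 1 response that differed became 0 with DESeq2 or the animal block and 2 with DESeq2's size factors. The animal block was fitted by region pair. Each of the 18 number groups holds 1 exposure and 17 hold 1 sex, and what else their animals share is not known. The correlation within them was -0.0489 to 0.0288 by region. It was estimated over all genes with condition and sex fitted, so it says nothing of a single receptor. Same-animal libraries were the best match in 1 to 5 animals of each pair. Depth limits the low receptors: at the median depth 3 counts are 0.277 to 0.542 CPM.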
